A study of Mus musculus with 6 samples.

Results

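The cytosolic chaperonin CCT, also called TRiC, was followed through the RNA of its 8 subunit genes, Tcp1, Cct2, Cct3, Cct4, Cct5, Cct6a, Cct7 and Cct8. They were taken by gene name from a table of 27480 genes, where each had a single row, and all 8 of 8 were abundant enough to be among the 16592 genes tested. The measurements came from bulk RNA sequencing of OT1 CD8+ T cells, mouse cells whose transgenic T cell receptor recognises a peptide of ovalbumin. Of the 6 libraries, 3 came from cells overexpressing PTMA (prothymosin alpha, an acidic protein of the nucleus) and 3 from cells with the empty overexpression vector. Both groups were labelled wild type and had received OVA peptide, the receptor's antigen, 48 h before. The labels give neither the type of vector nor the species of the PTMA sequence, and do not say whether replicates were separate animals or cultures. P-values therefore reflect how far these libraries vary, and that variation may be technical.

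CCT is a barrel of stacked rings in which each of the 8 related subunits has its own place, and it uses ATP to close around a protein and let it fold. Actin and tubulin are its best known clients, and proteins with WD40 repeats, such as the mitotic activator Cdc20, are others. Prefoldin hands it unfolded chains, and phosducin-like proteins work with it as cochaperones. Dividing lymphocytes need its clients for the spindle and the cytoskeleton. Because every complete ring holds each subunit once, the evenness of the 8 transcripts was asked about first, and the comparison of PTMA with vector cells second.

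The 6 libraries held 65548729, 66767589 and 65640178 counts in PTMA cells, against 54989408, 62995824 and 63011584 counts in vector cells. Markers of CD8+ T cells summed to between 7756 and 8154 FPKM (fragments relative to gene length and sequencing depth) in PTMA cells and to between 7447 and 8139 FPKM in vector cells, with all 8 of 8 listed genes present. The targeted gene Ptma had 1152, 1346 and 1272 CPM in PTMA cells, against 848, 783 and 1146 CPM in vector cells. CPM here are counts scaled to the library total and then by TMM, which corrects for differences in library composition. The groups did not overlap for Ptma, but its log2 fold change of 0.44 (SE 0.13) had an adjusted p of 0.951 (edgeR, Benjamini-Hochberg). Myeloid and dendritic-cell transcripts were low, and 0 of the listed genes had an adjusted p under 0.05 by edgeR. The listed myeloid and dendritic markers summed to between 3.81 and 4.88 FPKM in PTMA cells and to between 1.39 and 2.03 FPKM in vector cells, while Csf1r was at or near 0 in every library. Ccl22, which made up most of that sum in PTMA cells, had a log2 fold change of 2.48 and Fscn1 one of 2.78. Cd14 stood at 0.08 and Itgax at -0.30. Over the 5 listed markers that were tested the median was 2.48, and 4 were positive, so the marker not named here stood at 2.48 or above. The listed B cell markers summed to between 3.31 and 4.05 FPKM in PTMA cells and to between 2.32 and 2.90 FPKM in vector cells. Of the 3 tested, 2 were positive and 1 negative. The listed NK markers summed to between 9.60 and 10.8 FPKM in PTMA cells and to between 11.1 and 11.8 FPKM in vector cells. The part of all these markers in the subunit values below was not tested. In bulk RNA fewer cells of a type and less RNA per cell cannot be told apart.

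Stretches of 150 bases before the start of 4 subunit genes are shown because these genes lie at the ends and in the middle of the range of fold changes reported below. The sequences are RefSeq's, on GRCm38.p6. Capitals mark matches, on either strand, to 3 short motifs, none of which overlaps another here. The first is the GC box, GGGCGG. The CCAAT box reads as its reverse complement where it lies on the other strand, and the same holds for the last motif, the core of ETS sites, CCGGAA.
Cct7, chr6:85451355-85451504, plus strand: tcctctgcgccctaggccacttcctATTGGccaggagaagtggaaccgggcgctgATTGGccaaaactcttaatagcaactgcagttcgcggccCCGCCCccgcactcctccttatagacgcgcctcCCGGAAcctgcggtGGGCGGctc
Cct3, chr3:88296985-88297134, plus strand: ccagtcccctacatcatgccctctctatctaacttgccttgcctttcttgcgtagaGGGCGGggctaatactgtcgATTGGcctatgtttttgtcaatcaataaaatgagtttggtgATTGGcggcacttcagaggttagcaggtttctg
Cct8, chr16:87495870-87496019, minus strand: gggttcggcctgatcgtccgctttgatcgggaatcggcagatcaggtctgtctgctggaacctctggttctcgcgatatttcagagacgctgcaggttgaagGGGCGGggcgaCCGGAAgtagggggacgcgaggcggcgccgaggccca
Cct2, chr10:117063853-117064002, minus strand: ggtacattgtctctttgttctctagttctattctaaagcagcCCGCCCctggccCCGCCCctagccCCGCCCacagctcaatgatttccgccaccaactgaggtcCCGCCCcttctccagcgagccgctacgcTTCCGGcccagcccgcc
Cct7 and Cct3, which had the largest fold changes with all 6 libraries, each carried a pair of CCAAT matches here, all on the reverse strand. Cct8 and Cct2 carried none, and Cct2 instead had 4 GC boxes on its reverse strand. Among the subunits not printed, Cct6a also carried a pair of CCAAT matches in its 150 bases, at a log2 fold change of 0.05. Tcp1 carried 1 such match, at 0.10, and Cct5 carried none, at 0.09. This order of fold changes depended on the third vector library. Without that library Cct4 stood at 0.20 and Cct8 and Tcp1 at 0.19, above Cct3 at 0.16 and Cct7 at 0.12. A link between motifs and fold changes was not tested. Over the whole RefSeq window, 250 bases before to 50 after the start, 7 of the 8 subunit genes had an entry, Cct4 being the one without. A GC box was found in 7 of those 7 genes and in 35.7% of all 32851 mouse windows. RefSeq lists a second start for Cct2 and Cct5, and a gene was counted if either of its windows held the motif, which gives these genes more sequence than the single windows of the comparison. The ETS core was found in 5 of 7 genes, in Cct5 at its second start alone, and in 14.9% of all windows. CCAAT was found in 4 of 7 genes, Tcp1, Cct3, Cct6a and Cct7, and in 37.4% of all windows. The heat shock element GAANNTTC was found in 1 of 7 genes (Cct2, at its second start alone) and in 7.86% of all windows. The E-box CACGTG, the motif bound by Myc, was found in 0 of 7 genes and in 7.15% of all windows. Windows of the subunit genes were rich in CpG, with between 19 and 30 CpG per window against a median of 7 over all windows. A match to such short letters describes the sequence and says nothing of which factor binds there.

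The 8 transcripts were not even. In the deposited FPKM, Cct5 and Cct8 stood above the rest, Cct7 lay between, and the other 5 subunits sat close together. If all subunits were equal, each would hold 12.5% of the summed FPKM. Cct5 held between 20.5% and 22.6% over the 6 libraries and Cct8 between 18.5% and 20.3%. Cct7 held between 12.0% and 13.6%, and Cct2 and Cct4 had the smallest shares, between 8.10% and 9.50% and between 8.29% and 9.47%. The highest of these Cct2 and Cct4 shares both came from the third vector library.

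Cct5, the epsilon subunit, had 168, 158 and 155 FPKM in PTMA cells, against 149, 151 and 151 FPKM in vector cells. Cct8, the theta subunit, had 137, 150 and 145 FPKM in PTMA cells, against 130, 127 and 149 FPKM in vector cells. For Cct5 every PTMA library was above every vector library, whereas for Cct8 the third vector library reached the PTMA range. Cct7, the eta subunit, had 97.6, 99.5 and 95.7 FPKM in PTMA cells, against 88.8, 93.4 and 88.2 FPKM in vector cells. Its groups did not overlap on this scale. Cct3, the gamma subunit, had 78.3, 74.6 and 75.7 FPKM in PTMA cells, against 67.4, 71.8 and 68.4 FPKM in vector cells. The Cct3 groups did not overlap on this scale either. On FPKM 3 of the 8 subunits (Cct3, Cct5 and Cct7) had all PTMA libraries above all vector libraries, as did 5.48% of all tested genes.

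The lower-level subunits lay within a narrow band. Cct6a, the zeta subunit, averaged 69.9 ± 2.08 FPKM in PTMA cells and 67.4 ± 3.77 FPKM in vector cells (SD, n = 3 each). Tcp1, the alpha subunit after which the complex is named, averaged 66.9 ± 1.76 FPKM in PTMA cells and 62.3 ± 4.62 FPKM in vector cells. For both genes the groups overlapped. Cct4, the delta subunit, averaged 64.1 ± 1.99 FPKM in PTMA cells and 61.0 ± 7.41 FPKM in vector cells. Cct2, the beta subunit, averaged 61.4 ± 1.04 FPKM in PTMA cells and 62.0 ± 6.87 FPKM in vector cells. Both spread several times wider in vector than in PTMA cells.

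Neighbours in the FPKM order were separated to different degrees. Cct5 was above Cct8 in 6 of 6 libraries, Cct8 above Cct7 in 6 of 6, and Cct7 above Cct3 in 6 of 6. Cct3 was above Cct6a in 5 of 6, with the third vector library as the exception. Cct6a was above Tcp1 in 6 of 6 and Tcp1 above Cct4 in 5 of 6. Cct4 was above Cct2 in 3 of 3 PTMA libraries and in 0 of 3 vector libraries, so the order of the lowest pair was not the same in the 2 groups.

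This order depended on the gene length used. The lengths behind the deposited FPKM were within 1% of the length of all annotated exons of a gene merged together (GENCODE M21) for 98.5% of 10137 well-counted genes. Merged exons include retained introns and rare exons, and for the subunits they ran well past the length of a coding transcript. For Cct7 the merged exons came to 6778 bases, against 2441 bases for its principal transcript and 1632 coding bases. Cct3 had 6370 merged bases, against 1977 in its principal transcript and 1635 coding bases. For Cct5 the same lengths were 2766, 1853 and 1623 bases, and for Cct2 they were 2557, 1959 and 1605 bases. The coding lengths, from 1605 to 1668 bases over the 7 subunits that have one in this annotation, were almost the same, and Cct6a was annotated there without a coding part. Retained-intron transcripts made up 7 of 12 annotated for Tcp1 and 5 of 10 for Cct3, but 0 of 7 for Cct2.

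Values per kilobase were computed from CPM without TMM, scaled to the library total alone. Counted per kilobase of one transcript, Cct7 was highest at 289.7 CPM per kb, followed by Cct3 at 260.3, Cct5 at 257.8 and Cct8 at 200.4 CPM per kb, each a mean over the 6 libraries. Tcp1 followed at 147.7, Cct4 at 117.7, Cct6a at 112.6 and Cct2 at 89.6 CPM per kb. For Cct6a, without a coding part, the longest annotated transcript (2454 bases) was used, so its place rests on another rule. Per kilobase of coding sequence, Cct7 again led with 433.3 CPM per kb and Cct2 was again lowest with 109.3 CPM per kb. Relative to the mean of the subunits, Cct5 stood at 1.73 on the FPKM scale but at 1.40 per transcript, and Cct7 stood at 1.04 on the FPKM scale but at 1.57 per transcript. As a mean over the 6 libraries Cct2 was lowest under all 3 lengths, at 0.686 of the mean on the FPKM scale, 0.486 per transcript and 0.416 per coding length. On the FPKM scale Cct4 was nonetheless the lower of the pair in vector cells. The set of 4 higher subunits, Cct3, Cct5, Cct7 and Cct8, and the set of 4 lower ones was also shared by the means under all 3 lengths, as far as Cct6a could be placed. In the third vector library alone Cct3 ranked 7 of 8 by FPKM, below Cct6a, Cct2 and Cct4.

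**Figure D1:**
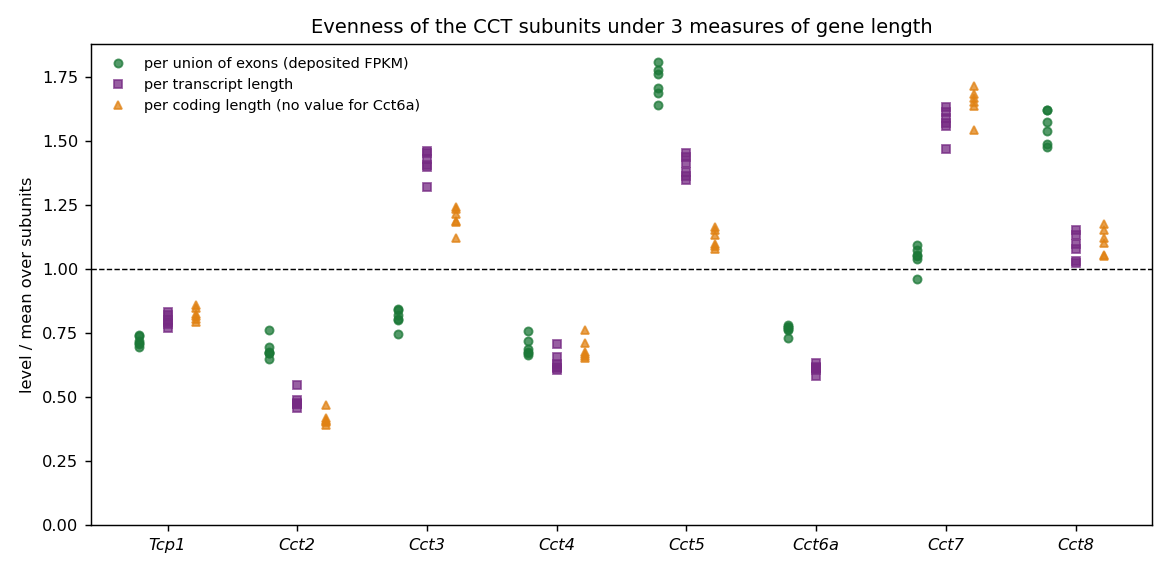
Level of each CCT subunit divided by the mean over the subunits, under 3 measures of gene length, with a point per library (6 libraries, both groups) and a dashed line at an even share. Cct5 leads with the merged-exon length of the deposited FPKM and Cct7 leads per transcript and per coding length, while the mean of Cct2 is lowest under each.

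The degree of unevenness hardly differed between the groups. The coefficient of variation over the 8 subunits was 42.5%, 43.0% and 40.5% in the PTMA libraries, against 42.9%, 41.4% and 39.6% in the vector libraries. The groups overlapped, with means of 42.0 ± 1.34% in PTMA cells and 41.3 ± 1.66% in vector cells. The highest subunit exceeded the lowest by 2.62 ± 0.15 times in PTMA cells and by 2.50 ± 0.24 times in vector cells on the FPKM scale. Per transcript these ratios were 3.38 ± 0.08 in PTMA cells and 3.12 ± 0.37 in vector cells. Per coding length they were 4.14 ± 0.10 in PTMA cells and 3.82 ± 0.46 in vector cells. Under each length the spread between vector libraries covered the difference.

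Set beside 3 other complexes built from several different subunits, CCT had a coefficient of variation by FPKM close to that of the MCM helicase and lower coefficients of variation than prefoldin and the proteasome core. The 6 subunits of prefoldin, which delivers chains to CCT, had a coefficient of variation of 68.4 ± 0.65% in PTMA cells and 67.1 ± 0.49% in vector cells by FPKM. The 14 listed subunits of the proteasome core, the protein-degrading chamber, had 57.3 ± 1.32% in PTMA cells and 55.9 ± 4.38% in vector cells. This list, Psma1 to Psma7 and Psmb1 to Psmb7, leaves out inducible subunits such as Psmb9. Its highest subunit by FPKM was Psmb5 and its lowest Psmb7. The 6 subunits of the MCM helicase, which opens DNA for replication, had 41.3 ± 1.53% in PTMA cells and 41.6 ± 2.79% in vector cells. The highest MCM subunit, however, exceeded the lowest by 3.62 ± 0.18 times in PTMA cells and 3.65 ± 0.19 times in vector cells, more than in CCT. For the proteasome core the order against CCT depended on the length used. Per transcript it came to 47.6% in PTMA cells and 47.1% in vector cells, above CCT at 43.3% in PTMA cells and 41.4% in vector cells. Per coding length the proteasome core came to 29.1% in PTMA cells and 28.5% in vector cells, below the 7 CCT subunits with a coding length, at 40.8% in PTMA cells and 39.3% in vector cells. Per transcript the MCM helicase came to 47.9% in PTMA cells and 48.4% in vector cells, above CCT. Per coding length the MCM helicase came to 41.0% in PTMA cells and 41.4% in vector cells, nearer to CCT. These values describe the lists and were not tested against each other.

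The comparison of PTMA with vector cells gave small positive differences for most subunits and no call. The adjusted p was under 0.05 for 0 of 8 subunits by edgeR's quasi-likelihood test, as against 0.0121% of all genes tested (2 of 16592). An unadjusted p under 0.05 was reached by 1 of 8 subunits, Cct3, and by 4.65% of all genes (1.92% with PTMA higher). By DESeq2 the counts of subunits were the same, 0 of 8 adjusted, against 0.253% of all genes, and 1 of 8 unadjusted. The fitted log2 fold change was positive for 7 of 8 subunits and for 46.8% of all genes. Among the 590 tested genes whose mean FPKM lay within the range of the subunits, 78.1% were positive and 7.29% had an unadjusted p under 0.05, so a positive sign was common at this level of expression.

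Cct3 (ENSMUSG00000001416, chr3:88297116-88321767, plus strand, GRCm38) had 555, 534 and 530 CPM in PTMA cells, against 483, 486 and 502 CPM in vector cells. Every PTMA library was above every vector library, and the mean was 10.1% higher in PTMA cells. Its log2 fold change was 0.14 (SE 0.06, 95% interval 0.01 to 0.27), with an unadjusted p of 0.0394 and an adjusted p of 0.951 by edgeR. Cct7 (ENSMUSG00000030007, chr6:85451514-85468475, plus strand) had 736, 758 and 713 CPM in PTMA cells, against 677, 673 and 689 CPM in vector cells. The groups again did not overlap, and the mean was 8.24% higher in PTMA cells. Its log2 fold change was 0.11 (SE 0.06, 95% interval -0.01 to 0.24), with an adjusted p of 0.951 by edgeR. Groups without overlap and higher in PTMA cells were found for 2 of 8 subunits on the CPM scale, for 5.39% of all tested genes and for 15.8% of the 590 genes at the level of the subunits.

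Tcp1 (ENSMUSG00000068039, chr17:12915701-12924556, plus strand) had 385, 370 and 367 CPM in PTMA cells, against 338, 318 and 392 CPM in vector cells. Cct5 (ENSMUSG00000022234, chr15:31590800-31601804, minus strand) had 516, 492 and 473 CPM in PTMA cells, against 465, 443 and 480 CPM in vector cells. For both genes 2 vector libraries were below every PTMA library, and the third vector library lay among or above them. The log2 fold change was 0.10 (SE 0.08) for Tcp1 and 0.09 (SE 0.06) for Cct5, with adjusted p-values of 0.952 and 0.951 by edgeR. Cct5 therefore separated the groups on the FPKM scale but not on the TMM-scaled CPM.

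Cct8 (ENSMUSG00000025613, chr16:87483326-87495873, minus strand) had 471, 522 and 493 CPM in PTMA cells, against 450, 417 and 530 CPM in vector cells. Cct4 (ENSMUSG00000007739, chr11:22990519-23003780, plus strand) had 291, 301 and 306 CPM in PTMA cells, against 268, 253 and 337 CPM in vector cells. In each the highest value of all 6 was the third vector library and the lowest were the other vector libraries. Cct6a (ENSMUSG00000029447, chr5:129786998-129846371, plus strand) had 284, 275 and 285 CPM in PTMA cells, against 262, 255 and 299 CPM in vector cells. It had the same arrangement. Log2 fold changes were 0.09 (SE 0.09) for Cct8, 0.07 (SE 0.10) for Cct4 and 0.05 (SE 0.07) for Cct6a, and their adjusted p-values by edgeR were 0.953, 0.958 and 0.957.

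Cct2 (ENSMUSG00000034024, chr10:117051001-117063814, minus strand) had 171, 178 and 174 CPM in PTMA cells, against 163, 161 and 206 CPM in vector cells. It was the one subunit with a negative value, a log2 fold change of -0.02 (SE 0.10, 95% interval -0.24 to 0.20) and an adjusted p of 0.987 by edgeR. Over the 8 subunits the 95% intervals reached no lower than -0.24 and no higher than 0.30 on the log2 scale.

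**Figure D2:**
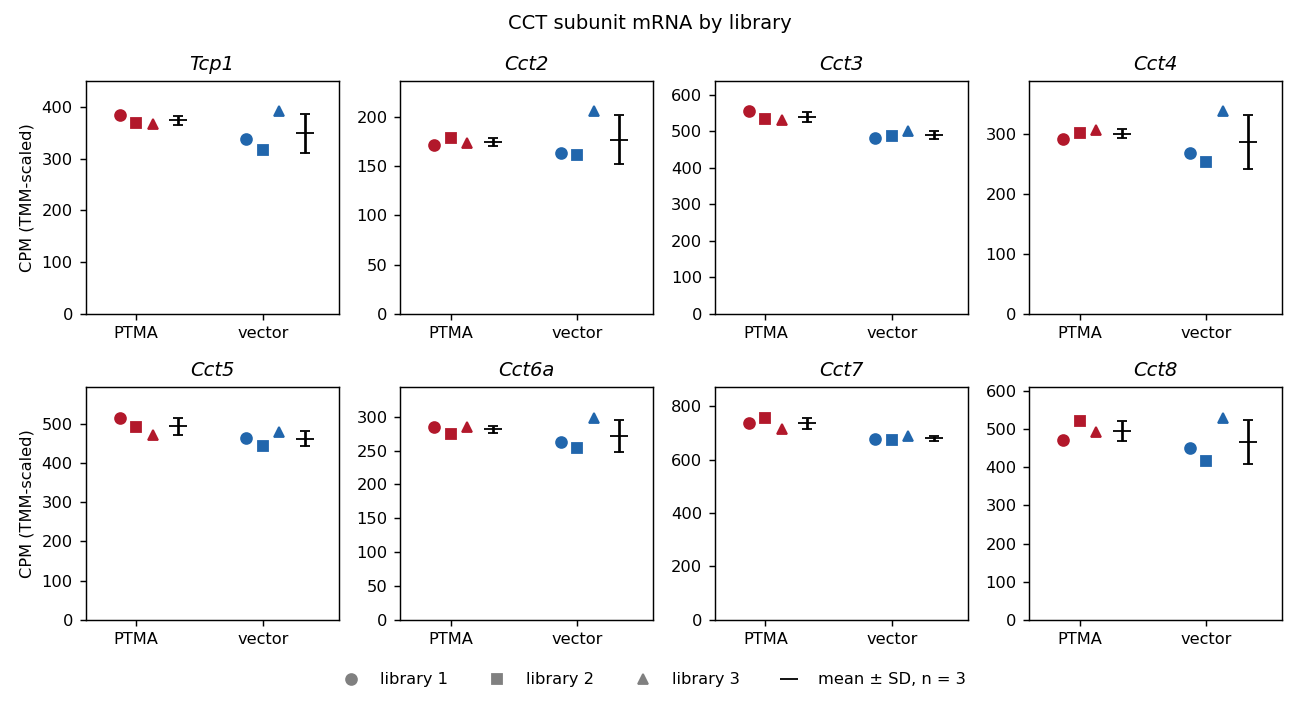
TMM-scaled CPM of each CCT subunit gene in each library, with PTMA cells left of vector cells, a symbol per library and the mean ± SD (n = 3) beside them. Cct3 and Cct7 separate the groups, and the vector points of Cct2, Cct4 and Cct8 spread more widely than their PTMA points because vector library 3 lies above the other vector libraries.

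**Figure D3:**
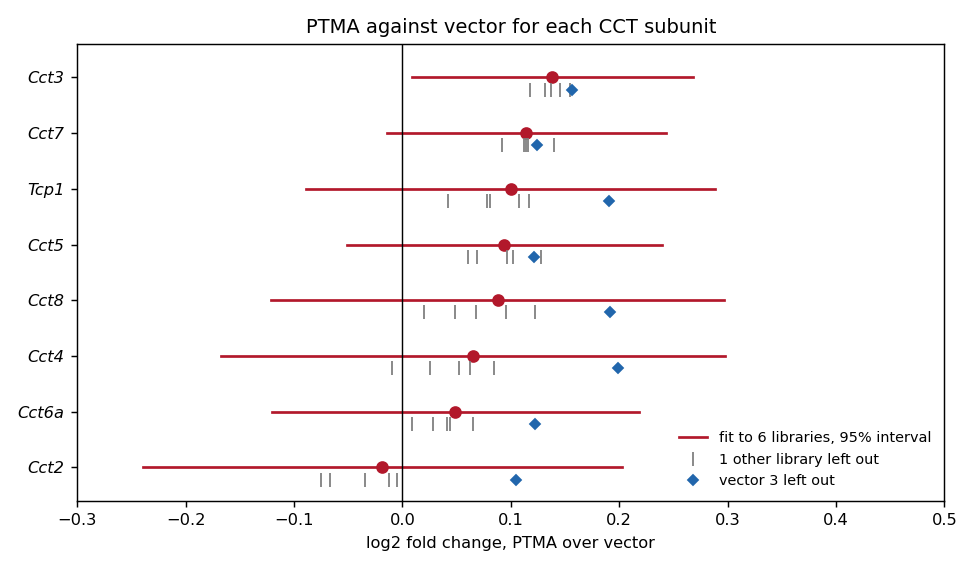
Log2 fold change of each CCT subunit, PTMA over vector, with its 95% interval from edgeR (circles and lines), and below it the values with 1 library left out (diamonds, vector library 3; ticks, each other library). With all libraries the values run from -0.02 for Cct2 to 0.14 for Cct3, and without vector library 3 all 8 are above 0.

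The fold changes of the 8 subunits were close to each other. They ran from -0.02 to 0.14, with a median of 0.09, an SD of 0.05 and a span of 0.16, while the median standard error of a single subunit was 0.08. The span was thus about 2 such standard errors wide, and a difference in fold change between subunits was not tested. Over the 590 genes in the same range of FPKM the median was 0.07 and the SD 0.11, with 78.1% positive. Over all tested genes the median was -0.01 and the SD 0.47, with 46.8% positive. Subunits of the proteasome core had a median of 0.10, with an SD of 0.04 and 14 of 14 positive. The MCM helicase had a median of 0.14, with an SD of 0.03 and 6 of 6 positive. In prefoldin the median was -0.01 and the SD 0.14. The summed FPKM of the 8 CCT subunits was 743, 741 and 738 in PTMA cells, against 673, 684 and 735 in vector cells. On this scale the third vector library was only just below the PTMA libraries. The groups did overlap in the sum per kilobase of transcript, which was 1521, 1507 and 1501 CPM per kb in PTMA cells, against 1422, 1387 and 1516 CPM per kb in vector cells, and also in the sum per coding length. Without length correction they overlapped too, at 3378, 3358 and 3345 CPM (without TMM) in PTMA cells, against 3162, 3082 and 3382 CPM in vector cells. For Tcp1 alone, where length cancels, vector library 3 was below PTMA library 1 by FPKM (67.6 against 68.9). By CPM without TMM it was above (386 against 382). The deposited FPKM thus scaled the libraries differently from the count totals.

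The ratio between the subunits at the ends of this span was looked at within libraries. The log2 ratio of Cct3 to Cct2 counts was 1.70, 1.58 and 1.61 in PTMA cells, against 1.56, 1.59 and 1.29 in vector cells. The third vector library alone was apart, and the other vector libraries lay beside or within the PTMA values. The pair was chosen for its fold changes, so no test was made.

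The third vector library separated the subunits into 2 sets. Relative to the mean of the other vector libraries it was higher by 29.3% for Cct4, 26.7% for Cct2, 22.4% for Cct8, 19.6% for Tcp1 and 15.7% for Cct6a. For Cct5 it was higher by 5.81%, for Cct3 by 3.71% and for Cct7 by 2.16%. On the log2 scale the shifts ran from 0.03 to 0.37, and the median size of such a shift over the 590 genes at the level of the subunits was 0.19. The transcripts of the strongly shifted set had the lower GC contents, 43.3% for Cct8, 45.1% for Cct4, 47.2% for Cct2 and 47.4% for Tcp1 and Cct6a. The other set had 49.3% for Cct3, 50.2% for Cct5 and 54.0% for Cct7. The sets were split by the shift itself. Over all tested genes the median shift of this library was 0.05 for transcripts of up to 44% GC, 0.06 between 44% and 48%, 0.03 between 48% and 52% and -0.07 above 52%. These medians were smaller than the shift of any subunit in the strongly shifted set, where the smallest was 0.21 for Cct6a. The Spearman correlation of GC content with this shift was -0.11 over 16572 tested genes and -0.90 over the 8 subunits. The share of counts from mitochondrially encoded genes was 1.91%, 2.30% and 2.38% in PTMA cells, against 2.0%, 1.86% and 2.64% in vector cells, highest in the third vector library. The part of GC content or of mitochondrial RNA in the subunit values was not tested.

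Without that library the fold changes moved together. Cct2 stood at 0.10 and Cct5, Cct6a and Cct7 at 0.12 on the log2 scale, and Cct3 stood at 0.16, Tcp1 and Cct8 at 0.19 and Cct4 at 0.20. All 8 were positive, the span was 0.09, and the adjusted p-values by edgeR ran from 0.193 to 0.386, so none was called. Each of Tcp1, Cct2, Cct4, Cct6a and Cct8 moved by more than 1.5 times when this library was left out, and Cct2 changed sign. Leaving out the second vector library instead put Cct4 at -0.01, Cct6a at 0.01, Cct8 at 0.02, Tcp1 at 0.04 and Cct2 at -0.08. Without the first vector library Cct4 stood at 0.03, Cct6a at 0.03 and Cct2 at -0.07. Without the first PTMA library Cct5 stood at 0.06 and Cct2 at -0.00457, and without the second PTMA library Cct8 stood at 0.05 and Cct2 at -0.03. The adjusted p was above 0.05 in each of these fits by edgeR.

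**Figure D4:**
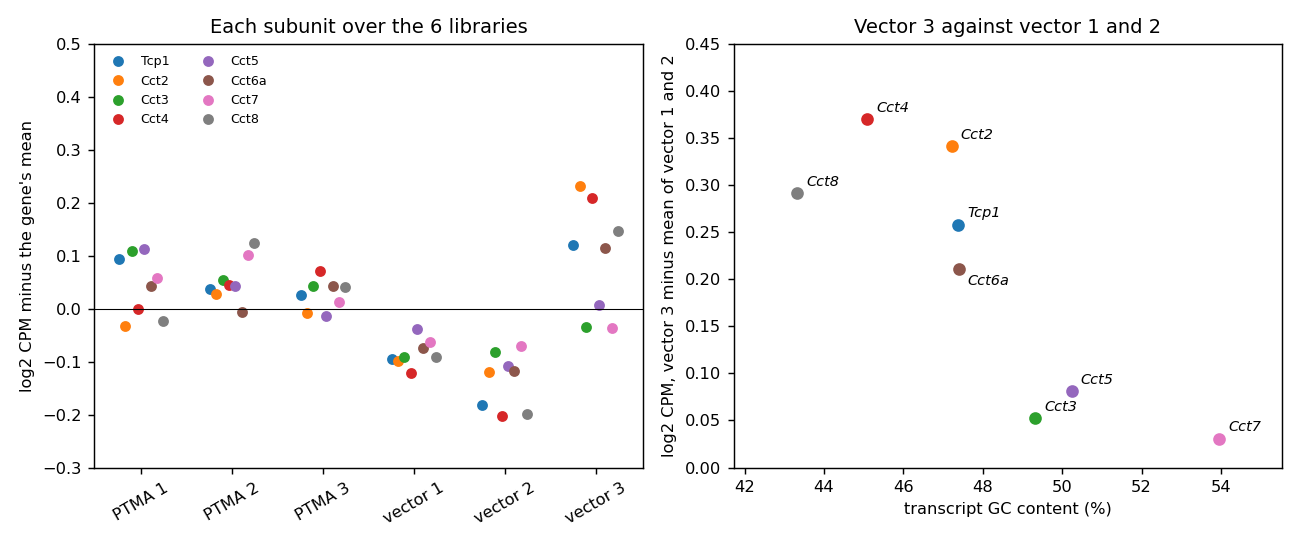
Left, log2 CPM of each CCT subunit in every library minus the gene's mean over the 6 libraries, with PTMA libraries to the left. Right, log2 CPM of vector library 3 minus the mean of vector libraries 1 and 2, against the GC content of the transcript, from 0.37 for Cct4 at 45.1% GC to 0.03 for Cct7 at 54.0% GC.

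Among 2643 other genes with at least 20 FPKM, the ones whose pattern over the 6 libraries was most like the mean pattern of the subunits were Psmb9, an inducible proteasome subunit, Hspa8, the constitutive cytosolic Hsp70, Rtca, an RNA phosphate cyclase, Kif11, a spindle kinesin, and Pdk3, a pyruvate dehydrogenase kinase. Their root-mean-square distances from it were 0.00681, 0.0106, 0.0119, 0.0189 and 0.0192 on the log2 scale. The subunits themselves lay between 0.0279 for Cct6a and 0.0675 for Cct2 from their own mean, and the median candidate at 0.0912. That mean includes each subunit, which lowers the subunit distances, so they are not on a par with those of the candidates. The 5 genes were picked as the closest of all candidates, so their small distances follow from the choice.

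The partners of CCT gave no call either. Of the 66 partner genes tested, 0 had an adjusted p under 0.05 by edgeR. The counts of positive values below compare with 46.8% of all tested genes and 78.1% of the 590 genes at the level of the subunits. In prefoldin, 3 of 6 subunits had a positive value. Pfdn4 had 8.0, 8.0 and 7.9 CPM in PTMA cells, against 8.6, 8.9 and 11.7 CPM in vector cells. Its groups did not overlap, PTMA being lower, as for 5.38% of all tested genes, with a log2 fold change of -0.29. Pfdn1 averaged 53.4 CPM in PTMA cells and 51.3 CPM in vector cells, and Pfdn6 averaged 75.4 CPM in PTMA cells and 70.1 CPM in vector cells. Vbp1, the prefoldin subunit that binds the von Hippel-Lindau protein, averaged 91.3 CPM in PTMA cells and 89.9 CPM in vector cells. Pfdn2 averaged 17.6 CPM in PTMA cells and 19.1 CPM in vector cells, and Pfdn5 averaged 86.7 CPM in PTMA cells and 89.1 CPM in vector cells. The third vector library was the highest of the vector libraries for all 6 prefoldin subunits. Among the phosducin-like cochaperones, Pdcl averaged 47.0 CPM in PTMA cells and 45.02 CPM in vector cells. Pdcl3 averaged 44.4 CPM in PTMA cells and 44.8 CPM in vector cells, and Txndc9 averaged 68.3 CPM in PTMA cells and 69.3 CPM in vector cells.

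Of 16 actin and tubulin genes, 13 had a positive value, with a median log2 fold change of 0.13, and 6 had groups without overlap and PTMA higher, as did 5.39% of all tested genes and 15.8% of those at the level of the subunits. Tuba1b, an alpha tubulin, had 2523, 2379 and 2410.5 CPM in PTMA cells, against 2065, 2123 and 2137 CPM in vector cells. The groups were well apart, with a log2 fold change of 0.21 (SE 0.05), but the adjusted p was 0.951 by edgeR. Actb, the beta actin gene, averaged 23579 ± 2875 CPM in PTMA cells and 23487 ± 3043 CPM in vector cells, and Actg1 averaged 2353 ± 221 CPM in PTMA cells and 2228 ± 179 CPM in vector cells. Among 12 WD40 and other clients, 9 had a positive value, with a median of 0.03. Cdc20 had 356, 352 and 326 CPM in PTMA cells, against 281, 295 and 309 CPM in vector cells. Plk1, a mitotic kinase, had 271, 281 and 260 CPM in PTMA cells, against 226, 232 and 236 CPM in vector cells. For these 2 mitotic genes the groups did not overlap, at log2 fold changes of 0.22 and 0.23. Gnb1, a G protein beta subunit, averaged 426 CPM in PTMA cells and 421 CPM in vector cells.

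In the prefoldin-like group, 6 of 7 values were positive, with a median of 0.11. Ruvbl2, an ATPase of the same assembly, had 175, 182 and 170 CPM in PTMA cells, against 156, 161 and 160.1 CPM in vector cells, without overlap. Its partner Ruvbl1 averaged 164 ± 10.4 CPM in PTMA cells and 143 ± 14.3 CPM in vector cells, with overlap. Pdrg1 overlapped too. Of 8 Hsp70 and Hsp90 system genes, 7 were positive, with a median of 0.07. Stip1, which joins Hsp70 to Hsp90, averaged 346 ± 10.97 CPM in PTMA cells and 317 ± 9.62 CPM in vector cells, and Dnajb1, an Hsp40 cochaperone, averaged 183 ± 6.70 CPM in PTMA cells and 162 ± 6.32 CPM in vector cells. Stip1 and Dnajb1, like Ruvbl2, had groups without overlap and PTMA higher. The same held for 5.39% of all tested genes and 15.8% of the 590 genes at the level of the subunits. Hspa8 averaged 2215 ± 32.2 CPM in PTMA cells and 2073 ± 186 CPM in vector cells, and Hsp90ab1 averaged 2142 ± 77.1 CPM in PTMA cells and 2002 ± 126 CPM in vector cells. Of 6 tubulin cofactors, which act on tubulin after CCT, 5 were positive, with a median of 0.05, and those named by the rule, Tbca, Tbcb and Tbcc, overlapped between the groups.

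The related chaperonin genes split evenly. Of 4 related genes tested, which include Cct6b, a close paralog of Cct6a, 2 were positive, and of these Bbs12, a chaperonin-like protein of the cilium, had 5.8, 6.9 and 6.0 CPM in PTMA cells, against 5.0, 4.9 and 5.6 CPM in vector cells. The groups did not overlap for Bbs12, PTMA being higher, as for 5.39% of all tested genes, and did for Mkks and Bbs10. The mitochondrial chaperonin Hspd1 averaged 284 ± 22.5 CPM in PTMA cells and 262 ± 34.1 CPM in vector cells, and its lid Hspe1 averaged 46.4 ± 4.57 CPM in PTMA cells and 48.2 ± 13.2 CPM in vector cells. Hsf1, the main heat shock factor, averaged 107 ± 4.62 CPM in PTMA cells and 103 ± 13.0 CPM in vector cells. Hsf2 averaged 5.12 ± 0.62 CPM in PTMA cells and 6.44 ± 0.98 CPM in vector cells. Neither heat shock factor was called.

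Some counts of subunits may hold reads of other genes, because the use of strand in counting is not given in the sources used here. On the opposite strand, Tcp1 shares 141 exon bases with Mrpl18, which had 5790 to 9099 counts, and 571 with Acat3, which had 427 to 611 counts. Cct6a shares 452 with Psph, which had 3328 to 4826 counts. Cct7 shares 214 with Pradc1, which had 2167 to 2925 counts, and Cct8 shares 192 with Usp16, which had 2280 to 2879 counts. Acat2, a gene with 4616 to 6469 counts, is 98.7% identical to Tcp1 over 445 bases. The counts of Acat2 and Acat3 together reached 30.6% of those of Tcp1. Those of Psph reached 26.9% of the counts of Cct6a. The values of Tcp1, Cct6a, Cct7 and Cct8 are uncertain to the extent that such reads were assigned to them, which was not tested. Small nucleolar RNAs inside Tcp1 and Cct6a had few counts, with the highest, Gm23245 in Cct6a, between 7 and 28. Of the processed pseudogenes of Cct7, Gm5380, 93.5% identical over 569 bases, had between 1 and 8 counts, and Gm3131, 80.1% identical over 497 bases, had between 0 and 7. Cct2, Cct3, Cct4 and Cct5 had no overlapping gene in this annotation.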

How the data were processed

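The authors deposited a single table with whole-number counts per gene and library, not normalized, and with FPKM of the same genes, per the file headers. The tools listed in the submitters' processing notes, without their order or use, are Bowtie 0.12.2, StringTie 1.3.0 and HISAT2 2.0, and the listed build is mm8. The table's coordinates are those of GRCm38. How reads were counted, and whether by strand, is not given in the sources used here. Libraries were paired-end and from poly(A) RNA, per the labels' protocols, whose extraction text mentions adipose RNA although the cells are T cells. Groups and replicate numbers came from the sample titles.

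Counts were scaled by TMM and tested across all genes that passed filterByExpr (minimum count 10, 16592 genes) with edgeR 4.0.16 (quasi-likelihood, Benjamini-Hochberg adjustment, threshold 0.05) in R 4.3.3, after the procedure was tested on simulated data. DESeq2 1.42.0 and limma 3.58.1 on log2(FPKM + 1) were alternatives. Evenness was computed from the deposited FPKM, and from CPM per kilobase of coding sequence (GENCODE M21) as an alternative. The alternative per kilobase of transcript was chosen after seeing the data. Near copies were found with BLASTN 2.17.0. Depth was 54989408 to 66767589 counts, where 3 counts, the limit that a count of 0 allows, correspond to between 0.0449 and 0.0546 CPM. That limit covers counting error only.

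The subunits and the gene lists were chosen with earlier results of these data known. The genes named are the 8 subunits, Ptma, all prefoldin and cochaperone genes and, from each other partner list, the 3 with the highest FPKM and the one with the smallest p, plus the 5 genes most like the subunits. Each replicate was left out in turn. Libraries of the same number showed no shared deviation (correlations -0.12, -0.16 and -0.12), so the numbers were not taken as pairs. No 2 replicates agreed within sampling noise.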

Additional observations from a re-analysis of the deposited data

How the results depend on the processing

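Across 12 alternatives for each of the 8 subunits, 94 of 96 log2 fold changes kept their direction and 0 passed the threshold, with adjusted p-values from 0.193 upward. The exceptions in direction were Cct2 without vector library 3, at 0.10 (adjusted p 0.386 by edgeR; leave-one-out range -0.075 to 0.10), and Cct4 without vector library 2, at -0.0100 (adjusted p 0.998 by edgeR; range -0.0100 to 0.20). Over all genes, 2 were called, against 0 without a filter on low counts, 42 with DESeq2, 1 with limma on FPKM and 0 to 3 with a replicate left out. It was 0 without PTMA library 1, PTMA library 3 or vector library 1. The cause of these changes was not tested, except that leaving out a library leaves fewer samples.

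With a replicate block 0 genes were called over all genes and 0 of the 8 subunits, where Cct3 stood at 0.14 and Cct2 at -0.01. The numbers did not pair the libraries, so this fit is given for completeness.

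The highest to lowest subunit ratio was 2.62 in PTMA cells and 2.50 in vector cells by FPKM. Per coding length it was 4.14 in PTMA cells and 3.82 in vector cells, without length correction 4.21 in PTMA cells and 3.89 in vector cells, and per transcript 3.38 in PTMA cells and 3.12 in vector cells. The coefficient of variation in vector cells was 39.3% per coding length. The SD of log2 FPKM over the subunits was 0.54 in PTMA cells and 0.53 in vector cells. As TPM the subunits summed to 2291 in PTMA cells and 2219 in vector cells. The span of the 8 fold changes ran from 0.09 to 0.21 with a replicate left out. With 3 libraries a group, small differences may have been missed, and the intervals given show precision and are not limits of detection. The intervals are not adjusted for the number of genes tested, so a difference may miss the threshold even where its interval excludes no change. Cct3, with an interval of 0.01 to 0.27, had an adjusted p of 0.951 by edgeR.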
